A study of Mus musculus with 2 samples.

Results

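Adenylate kinases and nucleoside diphosphate kinases were followed on 1 two-colour oligonucleotide array that compared the lung lobes of a Foxj1 homozygous and a Foxj1 heterozygous mouse embryo. The 9 genes described are Ak7, Nme5 and Nme7, which are known from motile cilia, and Ak1, Ak5, Nme1, Nme2, Nme4 and Nme6. The last 6 are called general here, though Ak1 is abundant in striated muscle and Ak5 is known mainly from brain. They were taken by name, as every probe for a transcript whose gene name in the array file, or whose current symbol for the listed transcript, was one of the 9. This gave 16 probes for 9 of the 27592 genes on the array. The homozygous embryo carried Foxj1lacZ on both copies (Foxj1-/-) and the heterozygous embryo on 1 copy (Foxj1+/-). Both were male littermates at E16.5 (embryonic day) on an Sv129/CD-1 hybrid background, and neither was a wild type, so the homozygous lung is set against a lung that also carries the allele. Tissue outside the lobes had been removed. The titles speak of lobes and the source names of epithelium, and no step that isolates epithelium is described. The homozygous RNA carried Cy5 and the heterozygous RNA Cy3, with 1 lung of each genotype and without a dye swap. An effect of the dye cannot be told apart from one of genotype, no difference has a replicate check, and no p-value is given.

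Adenylate kinases move a phosphate group between adenine nucleotides, making ATP and AMP from a pair of ADP molecules or the reverse, and so tie the ATP supply to AMP as a signal of energy shortage. Nucleoside diphosphate kinases pass the end phosphate of one nucleoside triphosphate to the diphosphate of another, which makes GTP, CTP and UTP at the expense of ATP. Beating cilia use ATP along the whole axoneme, far from the mitochondria of the cell body, and both families have members that are built into cilia. Ak7 is an axonemal adenylate kinase whose loss gives primary ciliary dyskinesia in mice. Nme5 is a component of the radial spokes, the arms that reach from the outer doublet microtubules towards the central pair. Nme7 binds the gamma-tubulin ring complex at centrosomes and is also found inside the doublet microtubules of axonemes. Foxj1, the gene changed in these embryos, encodes a forkhead transcription factor that drives the formation of motile cilia.

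The ratio given throughout is log2 of homozygous over heterozygous after background correction and loess dye normalization, so a negative value means lower in the homozygous lung. The error after ± is that of the scanner software for its own log ratio, which covers spot and channel noise and neither the difference between animals nor that between probes of a gene. A gene with several probes took the median of those that stood well above background in 1 or both channels. The error printed for such a gene is the median of the errors of these probes and does not cover their spread. Of 43379 spots for transcripts, 75.6% were well above background in the homozygous channel and 69.0% in the heterozygous channel. The SD of the log2 ratio was 0.0576 between repeated spots of a probe and 0.267 between probes of a gene. Of 21171 detected genes, 398 reached the 2-fold mark downwards and 122 upwards in the homozygous lung, and the median ratio of all of them was −0.0027. The central 95% of their ratios ran from −0.90 to 0.54. Foxj1 had levels on the log2 intensity scale of 7.61 in the homozygous and 9.53 in the heterozygous channel, a log2 ratio of −1.92 ± 0.30. Whether its probe lies in the part of the gene that the allele removes was not settled, so this value is a measurement and not a check of the labels. In RNA from whole lobes, fewer cells of a type and less RNA per cell cannot be told apart.

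Of the 9 kinase genes, Nme5 and Ak7 were lower in the homozygous lung by 2-fold or more, and 0 were higher by as much. Over all detected genes, 1.88% were lower and 0.576% higher by 2-fold or more. The remaining 7 genes had ratios from −0.22 to 0.53, inside the central 95% of all genes. The median over the 9 genes was 0.04, close to that of all detected genes. The genes known from cilia did not move as one group: Nme5 was lower on both of its probes, Ak7 on 1 of its 2 measured probes, and Nme7 on neither.

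Nme5, the radial spoke kinase, lies on chromosome 18 and had 2 probes there. The probe from 34694696 to 34696312 (mm8) covers an interval of 1617 bases, longer than its own 60 bases. It had a level of 9.05 in the homozygous and 10.81 in the heterozygous channel on the log2 intensity scale. Its log2 ratio was −1.75 ± 0.27, which is 3.37-fold lower in the homozygous lung. Before dye normalization its mean signal was 743 over a local background of 57.0 in the homozygous channel, against 1331 over 45.0 in the heterozygous channel. The second probe, from 34696298 to 34696357, had levels of 8.79 in the homozygous and 10.45 in the heterozygous channel. Its log2 ratio was −1.66 ± 0.26, or 3.17-fold lower. The 2 probes therefore differed by less than their scanner errors. They overlap by 15 bases, so they are not fully separate measurements of the transcript. As a gene, Nme5 stood at −1.71 ± 0.26, or 3.27-fold lower in the homozygous lung. Of the 21171 detected genes, 81 had a lower ratio.

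**Figure D1:**
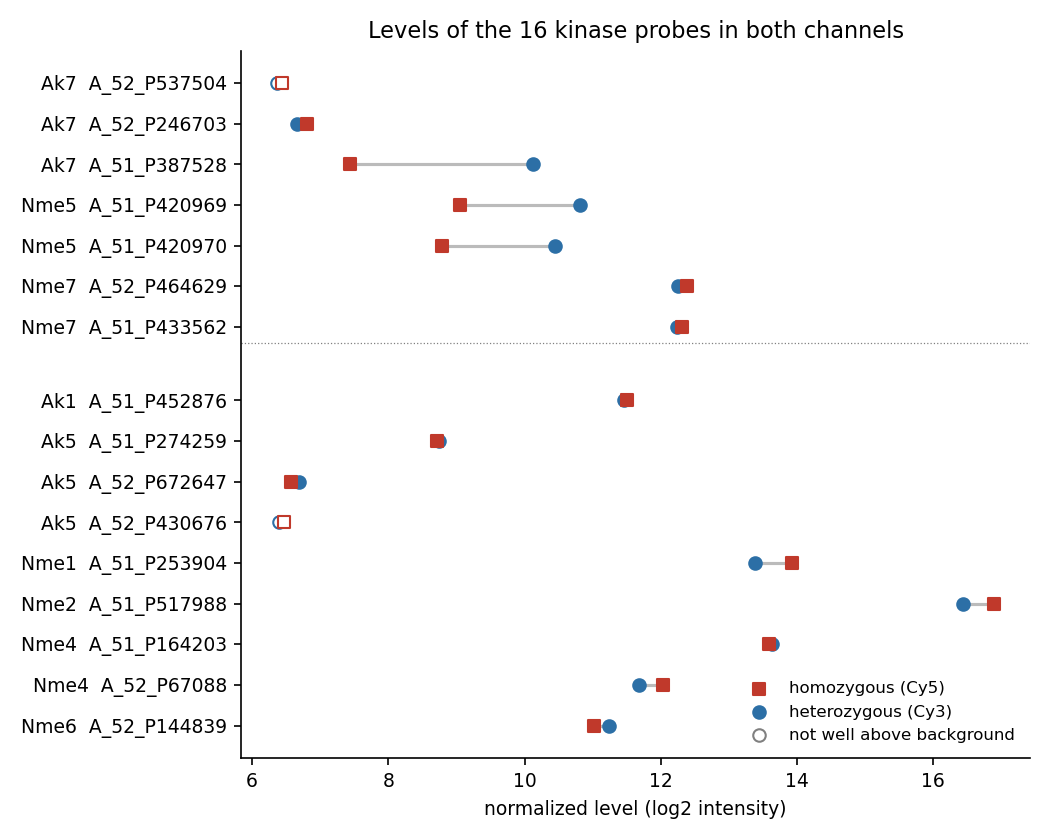
Normalized level of each of the 16 kinase probes (log2 intensity, horizontal axis) in the homozygous (squares) and the heterozygous channel (circles), with the genes known from cilia above the dotted line and the general ones below it; open symbols mark a probe not well above background. The widest gaps are those of 1 Ak7 probe (7.43 homozygous, 10.12 heterozygous) and of both Nme5 probes.

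Ak7, the axonemal adenylate kinase, lies on chromosome 12 and its 3 probes gave different pictures, so they are given apart. They are spread over 43639 bases of mm8, with gaps of 27908 and 13773 bases between neighbours. Their sequences are shown because the gene's value depends on which of them is read. Capitals mark the first stop triplet in each sense reading frame that has one within the printed bases. Where all 3 frames of a probe hold a stop, the first 30 bases are printed.
Ak7 probe A_52_P537504: gggcttgggaacacacaTAAaaTAAaatgg
Ak7 probe A_52_P246703: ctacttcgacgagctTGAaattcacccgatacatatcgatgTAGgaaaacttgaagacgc
Ak7 probe A_51_P387528: accacaaactgcacaaaacccatgtaccgc
The middle probe of the 3 keeps 1 sense frame open over its 60 bases, while the first and the last hold a stop in every frame. In the first, 2 of these stops lie within the bases printed, and in the last none does. A stretch with a stop in every sense frame cannot be coding along its whole length. Exon positions on mm8 were not used here, so no probe is placed in an exon, an intron or an untranslated end.

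The Ak7 probe A_51_P387528, from 106183375 to 106183434, was the one that differed between the lungs. It had levels of 7.43 in the homozygous and 10.12 in the heterozygous channel. Its log2 ratio was −2.69 ± 0.37, which is 6.46-fold lower in the homozygous lung. Its mean signal was 234 over a background of 53.0 in the homozygous channel, against 882 over 41.0 in the heterozygous channel. The scanner software's own log2 ratio for this spot was −3.24. This was the lowest ratio among the 16 kinase probes, and it lay below both Nme5 probes by more than their errors.

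The Ak7 probe A_52_P246703, from 106167764 to 106169601, covers an interval of 1838 bases. It had levels of 6.81 in the homozygous and 6.65 in the heterozygous channel, and a log2 ratio of 0.16 ± 0.34. Its mean signal was 2.12 times the local background in the homozygous channel and 2.38 times in the heterozygous channel. The low probe stood at 4.42 times its background in the homozygous channel and 21.5 times in the heterozygous channel. The dimmer probe was well above background by the scanner's rule in both channels, but so near to background that a deep decrease could not have been measured with it.

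The third Ak7 probe, A_52_P537504, from 106139796 to 106139855, was not well above background in either channel. Its signal was 95.5 over a local background of 49 in the homozygous channel, against 101 over 44 in the heterozygous channel. Its log2 ratio was 0.07 ± 1.25, and it was left out of the gene's value. It is listed under a different transcript record from the 2 probes kept, which share 1 record. The 3 probes do not share an error range: the low probe stood more than 2 log2 units below the others. The gene's value, the median of the 2 probes kept, was −1.27 ± 0.35, a level that neither of them showed. The error of 0.35 is the median of the errors of these 2 probes and does not cover their disagreement. That Ak7 was called lower rests on 1 probe. With the dim probe counted as well, the gene's median was 0.067, and with the brightest probe alone it was −2.69.

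Nme7, the kinase of the gamma-tubulin ring complex and the axoneme, had 2 probes on chromosome 1 that lie 31499 bases apart. They are shown as the counterpart of the Ak7 probes, since both were far above background and neither ratio passed the 2-fold mark. Each leaves 2 sense frames open over its 60 bases.
Nme7 probe A_52_P464629: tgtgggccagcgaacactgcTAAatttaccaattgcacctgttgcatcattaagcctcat
Nme7 probe A_51_P433562: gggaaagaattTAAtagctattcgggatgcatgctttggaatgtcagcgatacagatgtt
The probe from 166184482 to 166184541 had levels of 12.38 in the homozygous and 12.25 in the heterozygous channel, a log2 ratio of 0.13 ± 0.20. The probe from 166216041 to 166217317 had levels of 12.32 in the homozygous and 12.23 in the heterozygous channel, a log2 ratio of 0.09 ± 0.20. Both ratios were within their scanner errors of 0. As a gene, Nme7 stood at 0.11 ± 0.20, against −1.71 ± 0.26 for Nme5, a gap wider than both errors and wider than the SD between probes of a gene.

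The general adenylate kinases, Ak1 and Ak5, had ratios within their scanner errors of 0. Ak1, the cytosolic form abundant in striated muscle, had 1 probe on chromosome 2, from 32456816 to 32456876. Its levels were 11.51 in the homozygous and 11.47 in the heterozygous channel, a log2 ratio of 0.04 ± 0.20. Ak5, a form known mainly from brain, had 3 probes on chromosome 3. The brightest, from 152400272 to 152400331, stood at 8.72 in the homozygous and 8.74 in the heterozygous channel, a log2 ratio of −0.02 ± 0.21. The next, from 152418928 to 152418987, stood at 6.57 in the homozygous and 6.69 in the heterozygous channel, a log2 ratio of −0.13 ± 0.42. Its mean signal was only 1.89 times the local background in the homozygous channel and 2.63 times in the heterozygous channel. As with the dim Ak7 probe that was kept, a deep decrease could not have been measured with it. The third, spread over 4553 bases from 152436704 to 152441256, was not well above background in either channel and had a ratio of 0.07 ± 0.76. As a gene, Ak5 was at −0.07 ± 0.31. Unlike those of Ak7, the 3 Ak5 probes had ratios within each other's errors.

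Nme1 and Nme2, the abundant cytosolic nucleoside diphosphate kinases, are neighbours on chromosome 11 and encode proteins of very similar sequence. Their probes lie 9209 bases apart, and hybridisation of one transcript to the other's probe was not examined, so the 2 values may not be independent. Nme1, measured from 93775246 to 93775305, had levels of 13.92 in the homozygous and 13.38 in the heterozygous channel, a log2 ratio of 0.53 ± 0.21. Nme2, measured from 93765977 to 93766036, had levels of 16.89 in the homozygous and 16.45 in the heterozygous channel, a log2 ratio of 0.45 ± 0.20. Both were above 0 by more than the scanner error and below the 2-fold mark.

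The height of the Nme2 value depends on the dye correction. Of the 234 detected genes with a mean level of at least 16, 213 had a ratio above 0, their median was 0.53, and 130 stood above Nme2. That range held 53 of the array's 122 higher calls. In the scanner software's own dye-normalized values, Nme2 had a log2 ratio of 0.02 and Nme1 one of 0.55. With median centring of all ratios instead of loess, Nme2 stood at 1.45 and Nme1 at 1.22.

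Nme4, the nucleoside diphosphate kinase of the mitochondrial intermembrane space, had 2 probes on chromosome 17. The probe from 25819407 to 25819466 had levels of 13.58 in the homozygous and 13.63 in the heterozygous channel, a log2 ratio of −0.05 ± 0.20. The probe from 25821258 to 25821317 had levels of 12.04 in the homozygous and 11.68 in the heterozygous channel, a log2 ratio of 0.36 ± 0.21. The ratios differed in sign, by about the sum of their errors. As a gene, Nme4 was at 0.15 ± 0.21, within its error of 0. Nme6, another mitochondrial member, had 1 probe on chromosome 9 from 109699404 to 109699463. Its levels were 11.02 in the homozygous and 11.24 in the heterozygous channel, a log2 ratio of −0.22 ± 0.21. This was the lowest ratio among the general genes, and it was above 0, at 0.33, with median centring in place of loess.

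**Figure D2:**
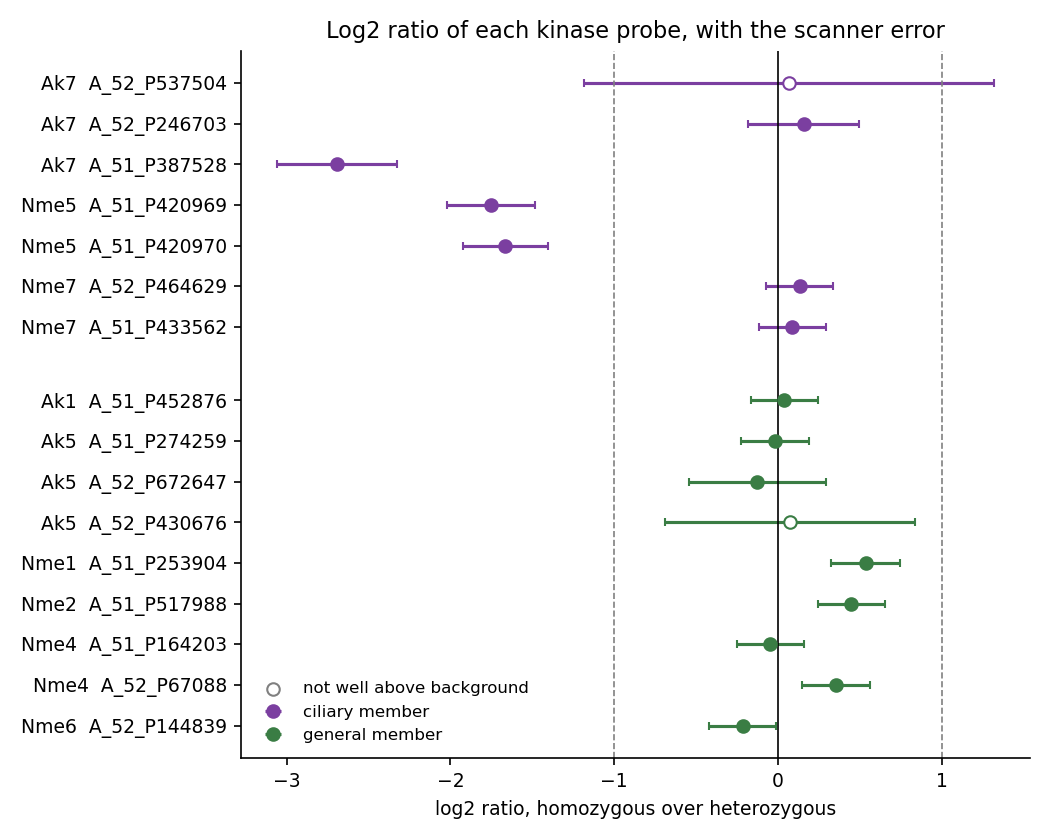
Log2 ratio of homozygous over heterozygous for each of the 16 kinase probes, with bars for the scanner software's error and dashed lines at the 2-fold mark in either direction; open circles mark probes not well above background. Of the probes shown, 3 lie beyond the 2-fold mark, all on the lower side: both Nme5 probes (−1.75 and −1.66) and Ak7 A_51_P387528 (−2.69).

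Set against each other, the genes known from cilia had a median ratio of −1.27 and the general genes one of 0.10, a difference of −1.36. The general genes spanned −0.22 to 0.53, and the ciliary ones −1.71 to 0.11. The 2 groups thus overlapped, since Nme7 lay inside the range of the general genes while Nme5 and Ak7 lay below it. With 3 genes, the ciliary median is the value of Ak7, and so it carries the disagreement between that gene's probes. With the dim probes counted, the ciliary median was 0.067 and the difference was −0.029. When each gene took its brightest probe, the ciliary median was −1.75, the value of Nme5, and the difference was −1.76. Nme5 itself ran from −1.82 to −1.25 over the alternatives and was at least 2-fold lower under 10 of 10. Some of these alternatives gave the same value, so they are not 10 separate checks.

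**Figure D3:**
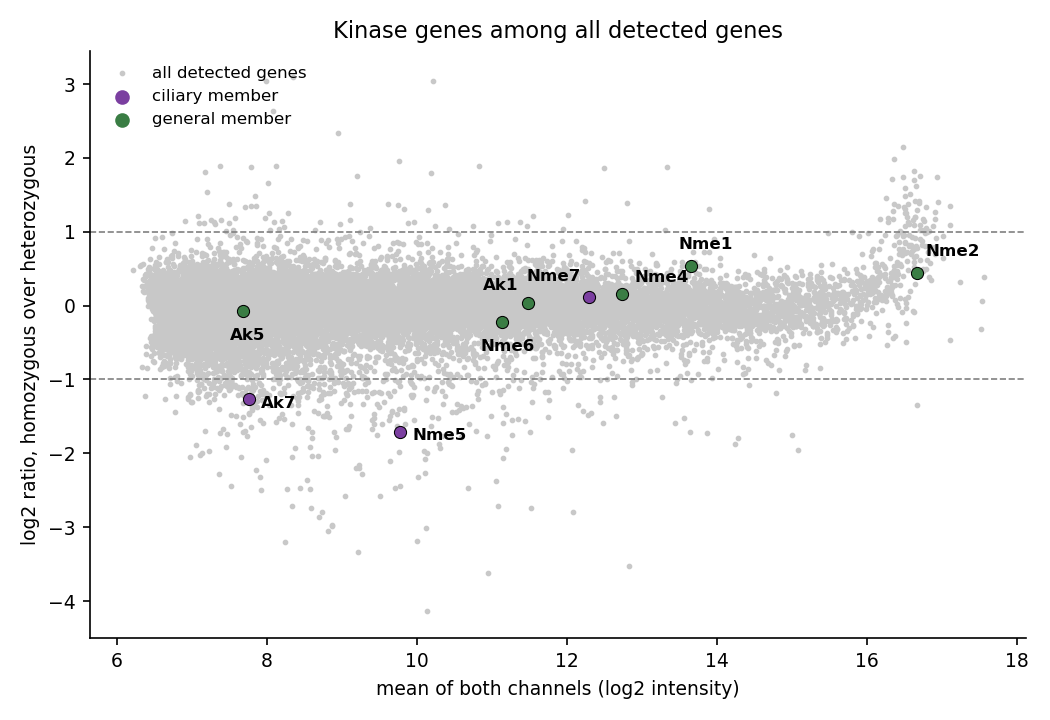
Each point is 1 of the 21171 detected genes, placed by its mean level over both channels (log2 intensity, horizontal axis) and its log2 ratio of homozygous over heterozygous (vertical axis), with dashed lines at the 2-fold mark and the 9 kinase genes named. Ak7 (−1.27) and Nme5 (−1.71) lie below the band of most genes, the other 7 within it, and the points at the bright end, around Nme2, lie mostly above 0.

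The promoters read from the RefSeq table, on build GRCm38.p6, covered 7 of the 9 genes, and none was read for Ak5 and Nme5. Ak7 and Nme6 are shown because both hold the forkhead core GTAAACA, the letters that forkhead factors such as Foxj1 are known to bind, and yet differed in ratio. Nme7 is shown because it holds GTTGCC, a part of the X-box motif of the Rfx factors that act with Foxj1 in ciliated cells. The 250 bases before the transcription start are printed, all on the + strand, with matches on either strand in capitals. They come from chr12:105705732-105705981 for Ak7, chr9:109832544-109832793 for Nme6 and chr1:164307422-164307671 for Nme7.
Ak7 promoter: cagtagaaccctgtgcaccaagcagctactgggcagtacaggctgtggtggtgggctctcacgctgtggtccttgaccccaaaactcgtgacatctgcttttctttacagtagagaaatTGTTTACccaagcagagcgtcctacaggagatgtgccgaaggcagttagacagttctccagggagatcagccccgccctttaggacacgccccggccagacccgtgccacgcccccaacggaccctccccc
Nme6 promoter: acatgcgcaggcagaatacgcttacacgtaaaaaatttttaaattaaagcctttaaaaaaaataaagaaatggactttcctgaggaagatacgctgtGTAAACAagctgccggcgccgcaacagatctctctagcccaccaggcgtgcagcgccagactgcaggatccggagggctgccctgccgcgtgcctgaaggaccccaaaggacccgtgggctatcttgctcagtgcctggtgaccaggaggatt
Nme7 promoter: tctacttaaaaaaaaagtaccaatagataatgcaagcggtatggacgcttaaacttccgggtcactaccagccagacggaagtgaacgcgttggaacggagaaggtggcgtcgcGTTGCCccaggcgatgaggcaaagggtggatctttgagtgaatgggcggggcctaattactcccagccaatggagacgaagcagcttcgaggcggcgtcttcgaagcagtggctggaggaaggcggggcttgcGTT
The Ak7 match lies 131 bases before the start on the strand opposite to that printed (TGTTTAC), and the Nme6 match 153 bases before it on the printed strand. Of 32851 promoters of 300 bases in the table, 3.65% hold GTAAACA on either strand. Nme7 has GTTGCC at 136 bases and at 3 bases before the start, the second running past the printed end, and 12.5% of promoters hold these letters. Of the other promoters, 2 of the 4 listed for Ak1 hold GTTGCC, with 5 matches between them. Nme1 has the shorter core TAAACA, which lies inside GTAAACA and is held by 13.4% of promoters. Nme2 and Nme4 hold none of the 3 motifs in this window. A match describes the letters only, and genes with the forkhead core stood at −1.27 (Ak7) and at −0.22 (Nme6).

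The rest of both families was read from a list of 9 genes, of which 7 are on the array and 6 were detected. Their median ratio was −0.08, and none passed the 2-fold mark in either direction. Ak8, an adenylate kinase known from cilia, was the lowest, with levels of 8.02 in the homozygous and 8.93 in the heterozygous channel and a ratio of −0.90 ± 0.23, or 1.87-fold lower. It stood beside the lower end of the central 95% of all genes and passed the 2-fold mark under 3 of 10 alternatives. Among those, the scanner's log ratio and the series matrix gave the same value, −1.03. Ak4, an adenylate kinase of the mitochondrial matrix, was the highest, with levels of 9.08 in the homozygous and 8.46 in the heterozygous channel and a ratio of 0.62 ± 0.22. Nme3 was at −0.27 ± 0.20 and Ak6, a nuclear form, at −0.23 ± 0.21. Ak3 of the mitochondrial matrix was at 0.11 ± 0.27. Nme8, a thioredoxin-domain member known from sperm and cilia, was not well above background in either channel. Ak9 and Nme9 were not analysed here.

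Partners of Nme5 and of Nme7 gave different counts. Of 20 radial spoke and central pair genes, 14 were detected, 12 of them in both channels. Of the 14, 13 had a ratio below 0 and 7 were at least 2-fold lower, beside 1.88% of all detected genes. Their median was −0.93. This list stands beside Nme5. Dydc2, a spoke-associated protein, was the lowest at −2.72 ± 0.40, with levels of 6.97 in the homozygous and 9.69 in the heterozygous channel. Rsph4a, a spoke head protein, exceeded background in the heterozygous channel alone, with levels of 6.32 in the homozygous and 8.02 in the heterozygous channel. Its ratio was −1.69 ± 0.48, or 3.23-fold lower, and rests on a homozygous signal not told apart from background. The same holds for Iqub, at −1.26 ± 0.39. Rsph4a and Iqub passed the filter through the heterozygous channel only, and they count among the 7. The highest were Cfap54, a central pair protein, at 0.11 ± 0.26, and Rsph6a at −0.39 ± 0.35. Of the 11 gamma-tubulin ring genes, which stand beside Nme7, all were detected, none passed the 2-fold mark, and the median was 0.15. Their lowest were Cdk5rap2, a centrosomal anchor of the ring, at −0.97 ± 0.22 and Tubgcp5 at −0.09 ± 0.26, and their highest Mzt1 at 0.58 ± 0.21 and Tubgcp4 at 0.45 ± 0.21.

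Other enzymes of nucleotide metabolism had list medians near 0. The 16 other nucleotide and phosphagen kinases had a median of 0.04, with 2 at least 2-fold lower and 0 higher. Over all detected genes, 1.88% were lower and 0.576% higher by as much. These 2 were creatine kinases, which like adenylate kinases buffer ATP: Ckmt1 at −1.08 ± 0.23 and Ckm, the muscle form, at −1.06 ± 0.23. Ckm stands in the list of muscle markers as well. The highest were Ckb, the brain form, at 0.60 ± 0.21 and Dck, the deoxycytidine kinase, at 0.48 ± 0.21. Of 12 genes that make, use or sense AMP, 11 were detected, none passed the 2-fold mark and the median was −0.02. The lowest were Prkaa2, a catalytic subunit of AMP-activated kinase, at −0.66 ± 0.23 and Adssl1 at −0.32 ± 0.21. The highest were Adsl at 0.27 ± 0.21 and Aprt at 0.14 ± 0.39.

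**Figure D4:**
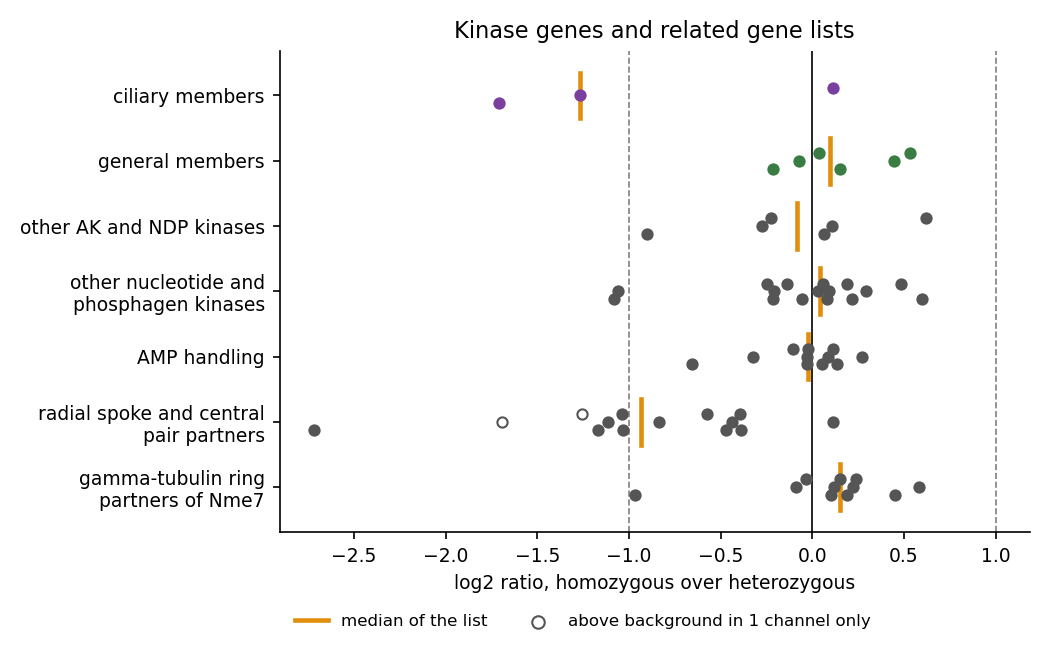
Log2 ratio of homozygous over heterozygous for each detected gene of 7 lists, with the median of each list as a vertical bar and dashed lines at the 2-fold mark; open circles are genes well above background in 1 channel only. Medians were −1.27 for the ciliary kinases, −0.93 for radial spoke and central pair genes, and between −0.08 and 0.15 for the other 5 lists.

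Markers of cell types moved on the same array, on which 1.88% of all detected genes were at least 2-fold lower. Of 10 multiciliated cell markers, Foxj1 among them, all were detected and 9 were at least 2-fold lower, with a median of −2.06 and a summed level of 6937 in the homozygous channel, against 32507 in the heterozygous channel on the linear scale. Foxj1, at −1.92, is the gene changed in these embryos and is counted in the 9, the median and the summed level. The 10 markers ran from −3.01 for Meig1 and −2.80 for Dynlrb2 to −1.20 for Tppp3 and −0.99 for Ccdc39. The ratios of Nme5 and of the low Ak7 probe lie inside that range, while that of Nme7 lies above it. The other Ak7 probes were near background or not well above it, so their ratios cannot be placed against that range. Of 7 club and goblet cell markers, 6 were detected and 5 were at least 2-fold lower, with a median of −1.51 and a summed level of 73778 in the homozygous channel, against 194490 in the heterozygous channel. Bpifa1 was not well above background in either channel. Scgb3a1 at −3.19 and Scgb1a1 at −2.47 were lowest, and Scgb3a2 at −1.35 and Muc5b at −0.17 highest. Scgb3a2, with levels of 15.99 in the homozygous and 17.34 in the heterozygous channel, made up most of both club and goblet sums. Of 6 neuroendocrine markers, 2 were at least 2-fold lower, with a median of −0.62 and a summed level of 1849 in the homozygous channel, against 4420 in the heterozygous channel. Grp at −1.78 and Calca at −1.18 were lowest. Grp, at a level of 11.47 in the heterozygous channel, made up most of the heterozygous neuroendocrine sum. The part of these cell types in the kinase results was not tested.

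Tissues in which the general genes are abundant gave values beside those genes. The share of all detected genes at least 2-fold lower was 1.88%. Of 10 markers of striated and cardiac muscle, where Ak1 is abundant, 7 were at least 2-fold lower, with a median of −1.5 and a summed level of 15854 in the homozygous channel, against 46316 in the heterozygous channel. Myl7 at −3.52 and Csrp3 at −2.79 were lowest, and Nppa at −0.24 and Actc1 at −0.07 highest, while Ak1 stood at 0.04. The muscle sums are weighted to their brightest genes, Actc1 (13.42) in the homozygous and Myl7 (14.58) in the heterozygous channel. Of 9 neuronal markers, 8 were detected and none passed the 2-fold mark, with a median of −0.14, beside −0.07 for Ak5. Stmn2 at −0.67 and Prph at −0.51 were lowest, and Snap25 at 0.01 and Tubb3 at 0.15 highest. The 10 markers of proliferating cells, in which Nme1 and Nme2 are high, had a median of 0.06 and none past the 2-fold mark. Mcm2 at −0.22 and Mki67 at −0.06 were lowest, and Mcm5 at 0.23 and Pcna at 0.52 highest. Pcna, like Nme2, lay in the bright range where most ratios were above 0. The 10 mitochondrial genes, listed for Nme4 and Nme6, had a median of 0.09 and none past the 2-fold mark, from −0.16 for Ndufa9 and −0.11 for Ndufs1 to 0.28 for Atp5a1 and 0.37 for Atp5b. The part of these tissues and organelles in the kinase results was not tested.

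The genes nearest to Nme5 in both channel levels, among 15912 genes with a RefSeq symbol measured in both channels, were found by Euclidean distance on the log2 scale over the 2 channels. Fabp4, a fatty acid binding protein of fat cells and endothelium, lay at a distance of 0.08, with levels of 8.97 in the homozygous and 10.69 in the heterozygous channel and a ratio of −1.60 ± 0.26. Further genes were 4933438K21Rik at a distance of 0.18 and a ratio of −1.46 ± 0.25, Rrp7a, a ribosome assembly factor, at 0.20 and −1.99 ± 0.31, and Fmo2, a flavin-containing monooxygenase, at 0.21 and −1.44 ± 0.25. With 2 channels, such a list shows likeness of level and ratio on this array alone.

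**Figure D5:**
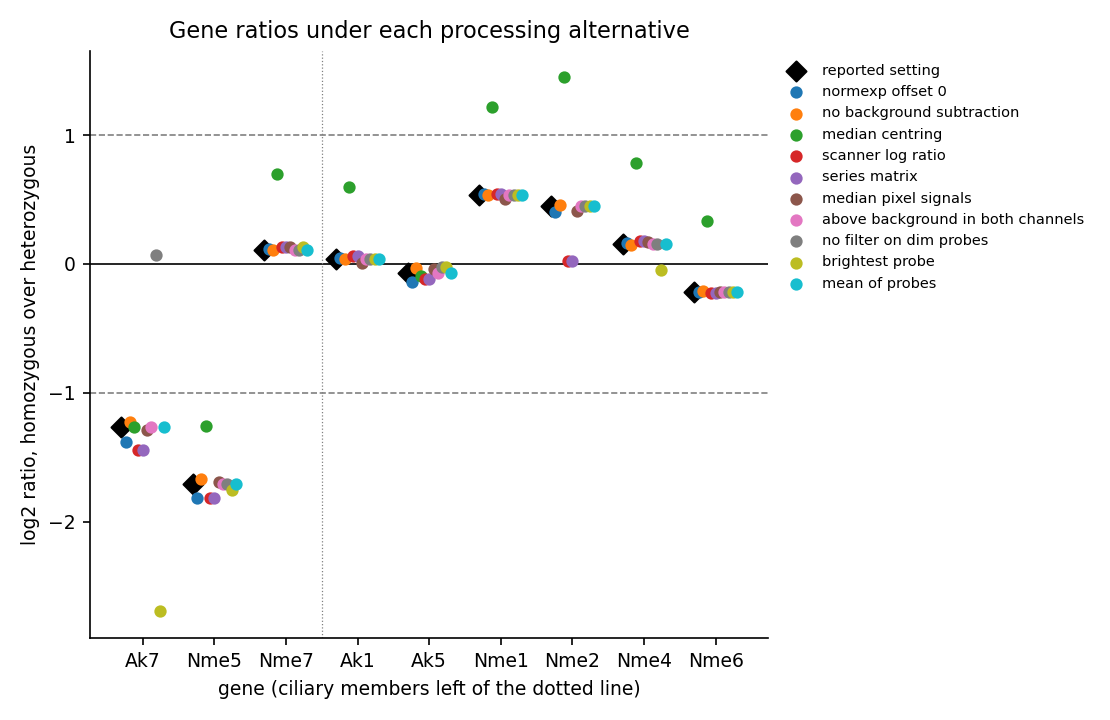
Log2 ratio of homozygous over heterozygous for each of the 9 kinase genes as reported (black diamonds) and under each of 10 processing alternatives (coloured circles), with ciliary genes left of the dotted line and dashed lines at the 2-fold mark. Nme5 stays between −1.82 and −1.25, Ak7 spreads from −2.69 to 0.07, and median centring lifts the bright genes, Nme2 to 1.45.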

How the data were processed

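The mean and median spot brightness and local background of each channel were deposited as intensity values, with the scanner's own processed intensity beside them, background-subtracted and dye-normalized per the file headers. The deposited log10 ratio is red over green, that is homozygous over heterozygous, per the file headers and the dyes in the labels. Its deposited error, multiplied to the log2 scale, is the error printed, taken for a gene as the median over its kept probes. The submitters' processing notes name Agilent Feature Extraction 9.5.3.1. The 2 deposited scanner files are identical and were counted as 1 array. The series matrix holds, by comparison with the scanner values, each sample's own processed intensity times 1.68 with a floor of 15. Its medians were 138.8 for the homozygous and 139.8 for the heterozygous sample, and the reason for the factor is unknown.

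Mean signals were corrected by normexp with an offset of 50 and loess-normalized within the array in limma 3.58.1 (R 4.3.3, data.table version 1.17.8), with control spots at weight 0. With this offset, dim probes have ratios closer to 0. Afterwards 169 outlier spots and the control spots were dropped, and 0 spots were saturated. Probes were kept when more than 0.5 of their spots exceeded background by the scanner's rule in either channel, and the median of the kept probes stood for the gene. Calls needed a log2 ratio of −1 or lower, or of 1 or higher. Of 41167 probes, 24372 were named through their transcript in the RefSeq gene list of assembly GRCm38.p6, 6300 by symbol and 2425 by synonym, and 8070 kept the file's name. Coordinates of probes were copied from the files (mm8). Python 3.11.15 was used for later steps, with pandas 2.3.3, numpy 2.4.6 and matplotlib 3.10.9. The calculation was tested on simulated data.

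Named were all 9 genes and their probes, each detected gene of the other family list, the 2 lowest and 2 highest of each further list, and the 5 genes nearest to Nme5. Some of the genes that this rule takes are not reported here. The members, the lists and the alternatives were chosen with earlier results of these data known. The number of arrays, 1, limits the precision.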

Additional observations from a re-analysis of the deposited data

How the results depend on the processing

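Each value was computed again under 10 alternatives: normexp with an offset of 0, no background subtraction, median centring in place of loess, the scanner's log ratio, the series matrix, median pixel signals, probes above background in both channels, no filter on dim probes, the brightest probe and the mean of probes. Of 90 such values for the 9 kinase genes, 79 moved by less than the gene's scanner error, and 11 moved by more. Some of the 90 could not move. The kept probes of these genes all passed in both channels, and no gene kept more than 2. Requiring both channels, or taking the mean of probes, therefore returned the reported value. The filter matters only for a gene with a dim probe, and the brightest probe only for one with several. The series matrix repeated the scanner's log ratio. The 79 thus include values fixed in advance. In all, 3 changed sign: Nme6 stood at 0.33 with median centring, Nme4 at −0.05 with the brightest probe, and Ak7, the only one of these past the 2-fold mark as reported, at 0.067 with no filter on dim probes, because its dimmest probe then set the median. Nme5 was at or below −1 under 10 of 10 alternatives and Ak7 under 9. These are not separate checks, since some alternatives gave the same value. All 9 of the Ak7 values took in the same low probe. The ciliary median was 0.067 with no filter and −1.75 with the brightest probe. The ciliary minus general difference was −0.029 with no filter, −1.76 with the brightest probe and −1.94 with median centring. Median centring raised the median of all genes to 0.22, that of the general genes to 0.69 and that of the other family members to 0.41. The 398 lower and 122 higher genes became 773 and 221 with an offset of 0, 1143 and 593 with the scanner's log ratio, 1139 and 457 with the series matrix, and 302 and 724 with median centring. The causes of these shifts were not tested. No paired analysis was possible because there is 1 sample per genotype. Over only the 250 bases before the start, 3.17% of promoters hold GTAAACA, 12.0% TAAACA and 10.4% GTTGCC. Protein identity between family members was not computed, since no protein table was used here. Of the 16 probes, 2 were not well above background in either channel and were left out. The kept dim Ak7 probe is only 2.12 times (homozygous) and 2.38 times (heterozygous) its background. A kept Ak5 probe is only 1.89 times (homozygous) and 2.63 times (heterozygous) its background.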
